A study of Mus musculus with 10 samples.

Results

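Semaphorins and ephrins are 2 families of guidance ligands, and plexins, neuropilins and Eph receptors are the receptors that read them. Their genes were followed in differentiating C2C12 cells with and without a knockdown of *Fndc1*, with the ligands set beside the receptors. Members were the protein-coding rows of the deposited gene table whose symbols belong to the semaphorins of classes 3 to 7, the ephrins, the plexins, the 2 neuropilins or the Eph receptors. This gave 53 genes of the 55359 in the table: 20 semaphorins and 8 ephrins, which made 28 ligands, and 9 plexins, 2 neuropilins and 14 Eph receptors, which made 25 receptors. The biotype cell held protein_coding alone for 8 of the 53 members and protein_coding beside other types for the rest, and all of them were kept.

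C2C12 is a line of mouse myoblasts that, once serum is withdrawn, leave the cell cycle and fuse into myotubes. The cells were transfected with 100 nM of a control siRNA (si-Control, 5 libraries) or of an siRNA against *Fndc1* (si-*Fndc1*, 5 libraries), differentiated in 2% horse serum, and their poly(A) RNA was sequenced. The labels and the methods of the study place them at day 4 of differentiation, whereas the design text of the series gives 48 h after transfection, and the sources also differ in the transfection reagent. A single cell line was used, the methods list 1 siRNA sequence against *Fndc1*, and nothing in the labels says that the libraries of a group came from separate cultures, so p-values measure the spread between these libraries only.

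Semaphorins act mostly through plexins, whose intracellular part switches off small GTPases of the Ras and Rap type and so remodels the cytoskeleton and integrin adhesion. Secreted class 3 semaphorins usually need a neuropilin as a coreceptor, whereas the other classes are held in the membrane and bind plexins directly. Ephrins are membrane-bound and signal across cell contacts to Eph receptors, the largest family of receptor tyrosine kinases, and signals can also run back into the ephrin-bearing cell. In muscle these systems are best known for guiding motor axons and blood vessels and for positioning migrating myogenic cells.

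Total counts were 66771605 to 75995168 per si-Control library and 56332844 to 72839369 per si-*Fndc1* library. *Fndc1* itself was at 27.8 ± 2.04 FPKM (fragments scaled to transcript length and library size; SD, n = 5) in si-Control and at 20.9 ± 1.70 FPKM (SD, n = 5) in si-*Fndc1*, a fall of 24.8% (log2 fold change -0.40, SE 0.07, adjusted p = 0.000934, edgeR with Benjamini-Hochberg adjustment). With GC content and length corrected for, as described further down, its log2 fold change was -0.23 (adjusted p = 0.00846). The myotube identity of the cells was visible in all libraries: 15 of 15 myotube markers were above 0.5 FPKM, with a summed level of 5211 to 5697 FPKM in si-Control and 5073 to 5923 FPKM in si-*Fndc1*. Of these markers 5 were called higher and 1 lower in si-*Fndc1*, 40% beside 34.4% of all tested genes. With the correction described further down 4 were called higher and 2 lower. Markers of endothelial cells, in which many members are best known, summed to 0.251 to 0.395 FPKM in si-Control and 0.240 to 0.696 FPKM in si-*Fndc1*, with *Cdh5*, *Emcn*, *Erg* and *Sox17* at 0 in every library. Of 10 neuron markers 3 were above 0.5 FPKM, *Syn1*, *Stmn2* and *Gap43* (summed over the list 20.0 to 20.3 FPKM in si-Control, 19.8 to 23.4 FPKM in si-*Fndc1*), and *Rbfox3*, *Snap25* and *Gad1* were at 0. *Stmn2* was called higher in si-*Fndc1* (edgeR adjusted p = 0.00753), and *Syn1* and *Gap43* were not called. With the correction described further down all 3 were called, 2 higher and 1 lower. Of 10 Schwann cell and glia markers 1 was above 0.5 FPKM, *Erbb3* at 18.4 ± 1.74 and 15.6 ± 2.24 FPKM (summed 16.5 to 20.8 and 14.0 to 19.2 FPKM), with *Cdh19* at 0. Of 10 macrophage markers 2 were, *Cd68* and *Cd14* (summed 4.51 to 5.20 and 3.92 to 5.14 FPKM), with *Ptprc* and *Adgre1* at 0. Hepatocyte markers moved with the groups: all 11 rose, and their summed level was 0.191 to 5.74 FPKM in si-Control and 48.4 to 173.8 FPKM in si-*Fndc1*. Their part in the results below was not tested.

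Differentiated C2C12 cells carried more receptor than ligand transcript. In si-Control the 25 receptors summed to 209 ± 4.87 FPKM and the 28 ligands to 144 ± 4.13 FPKM (SD, n = 5). *Plxnb2*, the plexin that binds Sema4c, was the highest member at 53.4 ± 2.11 FPKM, and *Ephb6*, an Eph receptor that lacks kinase activity, followed at 49.7 ± 2.02 FPKM. Their ranges over the 5 libraries overlapped, and they carried 25.6% and 23.8% of the summed receptor level. *Plxna1* (21.7 ± 0.606 FPKM) and *Nrp2* (21.3 ± 0.843 FPKM) came next, also with overlapping ranges, and then *Epha2* (12.0 ± 0.773 FPKM) and *Ephb4* (11.7 ± 0.176 FPKM). Among the ligands the order began with *Sema3b* (18.9 ± 0.439 FPKM), a secreted class 3 semaphorin, whose range lay apart from that of the next, *Sema7a* (17.4 ± 0.558 FPKM), which is anchored to the membrane by a lipid. *Sema4c* (13.7 ± 3.59 FPKM) and *Efnb2* (13.3 ± 0.514 FPKM), the gene of ephrin-B2, followed with ranges that overlapped each other. From *Efnb1* at 6.89 ± 0.499 FPKM down to *Sema3a* at 3.83 ± 0.143 FPKM each ligand overlapped its neighbour in the order.

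Several members were at or near 0. *Sema7a* was the second most abundant ligand, while *Plxnc1*, its plexin, had 0 to 8 reads in a library. *Epha5*, *Epha6*, *Epha8* and *Epha10* had no read in any library, and *Epha3* and *Ephb1* had at most 15 and 12 reads. Altogether 34 members reached the mean of 0.5 FPKM over the 10 libraries that was required for testing (19 ligands, 15 receptors) and 19 did not. Those under the limit with some reads were *Sema3g*, *Sema4a*, *Sema4g*, *Sema5b*, *Sema6b*, *Sema6d*, *Efna3*, *Efna5*, *Efnb3*, *Plxna4*, *Plxnb3*, *Plxnc1*, *Epha3*, *Epha7* and *Ephb1*. The highest of them in si-Control was *Efna3* at 0.469 ± 0.171 FPKM, and these genes stayed out of the tests reported here.

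The knockdown samples had less receptor transcript, and the ligands split. Of the 34 tested members 21 passed an adjusted p of 0.05, 18 lower and 3 higher in si-*Fndc1* (quasi-likelihood F test of edgeR, Benjamini-Hochberg over the 13548 tested genes). Over all tested genes 34.4% were called, 17.2% lower and 17.3% higher. Among receptors 11 of 15 fell and 0 rose, and the median log2 fold change was -0.27. Among ligands 7 of 19 fell and 3 rose, with a median of -0.13, beside a median of 0.00 over all tested genes. Of the 15 receptors 14 had a negative log2 fold change, against 12 of the 19 ligands. In CPM (counts per library size) the si-Control and si-*Fndc1* ranges were separate for 15 members that were lower in si-*Fndc1* (9 receptors and 6 ligands) and for 2 that were higher (both ligands), and over all tested genes this held for 12.3% and 12.7%.

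**Figure D1:**
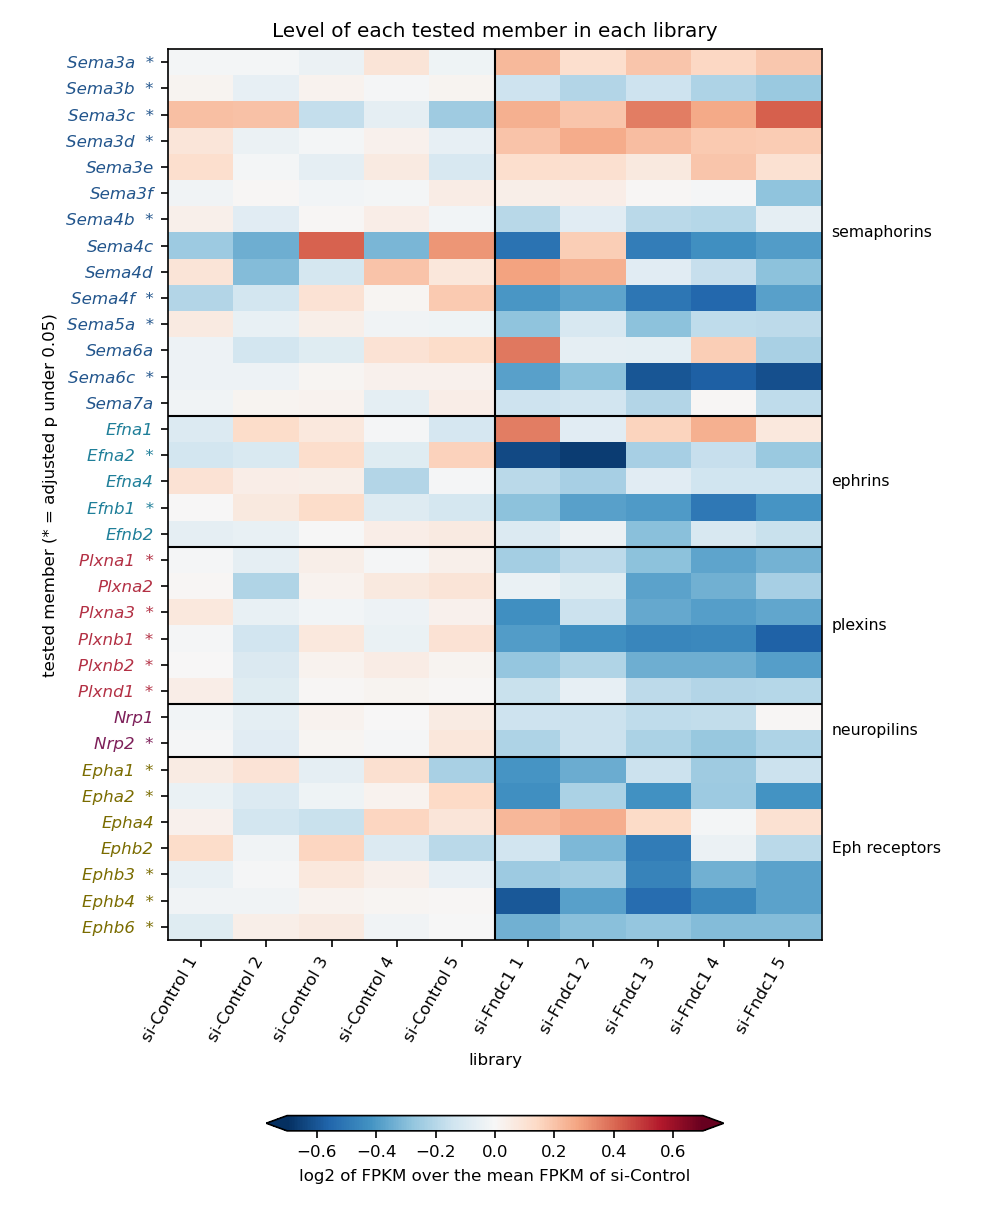
Level of the 34 tested members (rows, grouped by family) in the 10 libraries (columns), as log2 of the FPKM value over the mean of the 5 si-Control libraries, with an asterisk for an adjusted p under 0.05. The receptor rows are mostly blue in all 5 si-*Fndc1* libraries, *Sema3a*, *Sema3c*, *Sema3d* and *Sema3e* are red there, and *Sema4c* varies as much within the groups as between them.

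In bulk RNA a summed level weighs each gene by its abundance, and fewer cells of a kind cannot be told apart from less RNA per cell. The summed receptor level was 202 to 213 FPKM in si-Control and 168 to 179 FPKM in si-*Fndc1*, a difference of -18.2% between the means. The summed ligand level was 140 to 150 FPKM and 131 to 140 FPKM, a difference of -6.12%, and here the groups overlapped. The receptor sum over the ligand sum was 1.43, 1.44, 1.43, 1.49 and 1.44 in the si-Control libraries and 1.24, 1.28, 1.27, 1.23 and 1.28 in the si-*Fndc1* libraries. Every si-*Fndc1* library thus had a lower ratio than every si-Control library. The difference was not carried by *Plxnb2* and *Ephb6* alone, since the other receptors summed to 106 ± 3.01 FPKM in si-Control and 87.5 ± 3.07 FPKM in si-*Fndc1* (-17.3%). By family the difference was -19.7% for Eph receptors, -18.2% for plexins, -12.9% for neuropilins, -9.76% for ephrins and -4.88% for semaphorins. No test was made of these sums, because the members had been chosen with earlier results of the same data known. The sums and the ratio were not corrected for GC content and length.

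**Figure D2:**
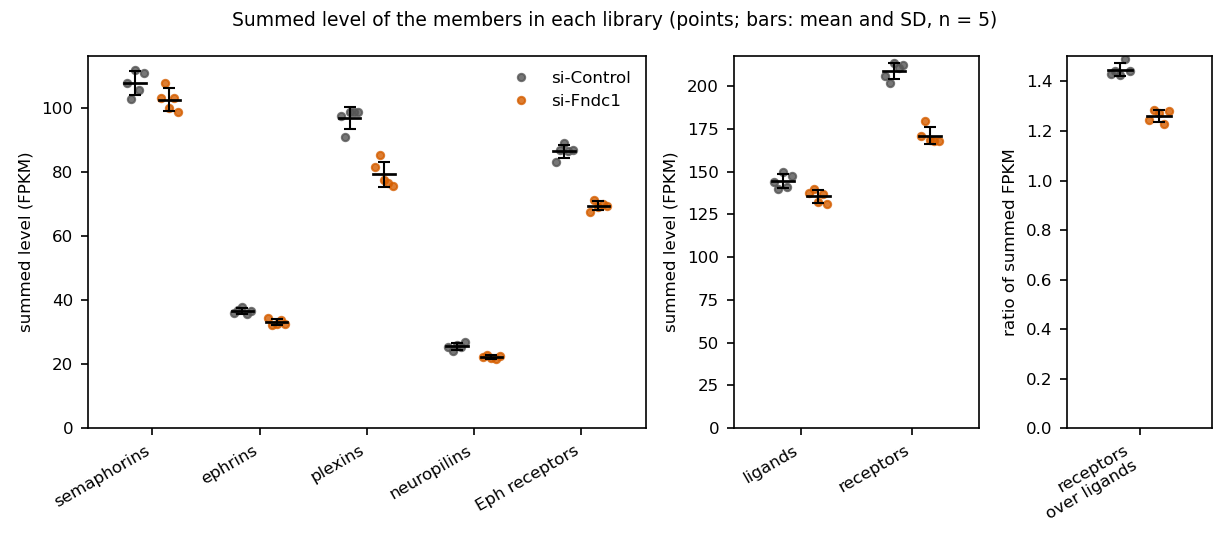
Summed FPKM of the members of each family, of ligands and of receptors, and the ratio of the receptor to the ligand sum, with 1 point per library and bars for the mean and SD of 5 libraries. The points of the groups are apart for plexins, neuropilins, Eph receptors, ephrins and all receptors and for the ratio, and they overlap for semaphorins and for all ligands.

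Much of this pattern ran along the GC content of the transcripts. Over the 11185 tested genes with a known GC content and length, log2 fold changes were lower the higher the GC content (Spearman's rho -0.52 across genes, which share libraries and are not independent replicates). Tested genes with a GC content of at least 55% had a median log2 fold change of -0.17 and 40.9% of them were called lower, whereas genes under 45% had a median of 0.17 and 39.9% were called higher. Of the 21 members with at least 55% GC, 16 were called lower (76.2%), among them 10 of 11 receptors and 6 of 10 ligands. The 4 tested members under 45% were *Sema3a*, *Sema3c*, *Sema3d* and *Sema3e*, and 3 of them were called higher. No receptor lay under 45%. The median GC content was 56.9% for tested receptors and 56.8% for tested ligands, but the lowest was 45.3% for receptors and 39.8% for ligands. Alike medians thus do not mean that the 2 sets were alike in GC content.

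**Figure D3:**
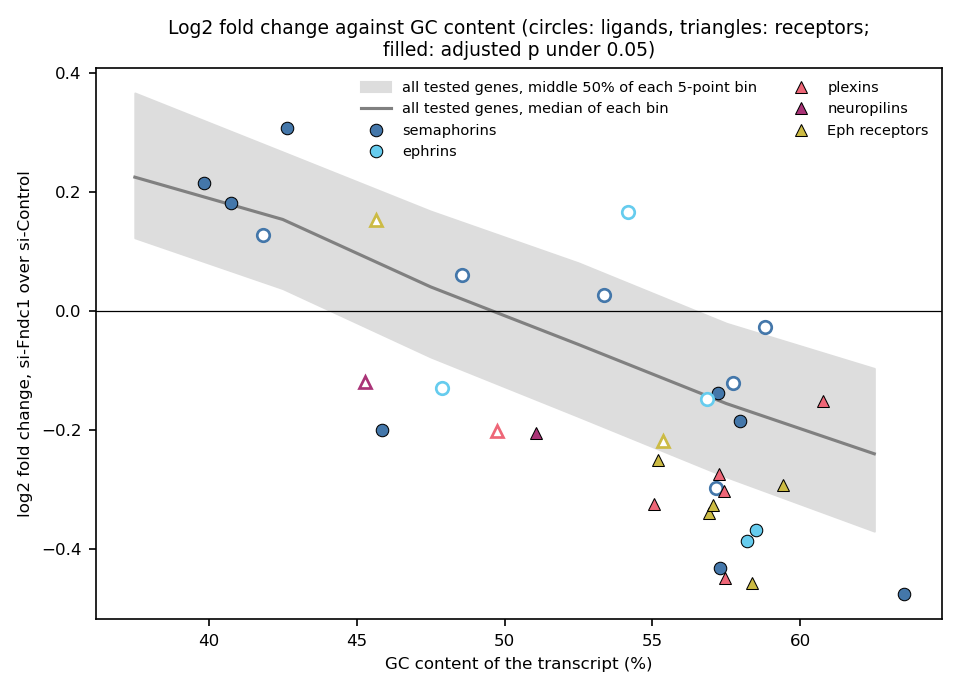
Log2 fold change (si-*Fndc1* over si-Control) of the 34 tested members against the GC content of their transcripts in percent, circles for ligands and triangles for receptors, filled where the adjusted p was under 0.05; the grey line and band give the median and the middle 50% of all tested genes in bins of 5 points. The median of all genes runs from 0.22 at 35% to 40% GC to -0.24 at 60% to 65%, and most triangles lie below the band's centre.

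When the trend of each library's counts with GC content and length was taken out, 8 of the 34 members were called, 5 lower and 3 higher (23.5%). Over all genes with these properties 22.8% were then called, 11.3% lower and 11.5% higher, so the share of members called was near that of all genes. The median log2 fold change became 0.02 for ligands, a change of sign, and -0.08 for receptors, beside 0.00 for all genes. Of the 15 receptors 12 remained negative (3 called lower, 1 called higher), against 8 of the 19 ligands (2 called lower, 2 higher). The members called in the same direction with and without the correction were 4: *Ephb4*, *Efnb1* and *Plxnb1*, which fell, and *Sema3a*, which rose. With the replicate number as a block beside the correction, *Ephb4* and *Efnb1* kept their calls (edgeR adjusted p = 0.0206 and 0.0492). *Plxnb1* and *Sema3a* did not (edgeR adjusted p = 0.0699 and 0.123). The split of 18 lower to 3 higher calls thus rested on the uncorrected counts, and each value below is therefore given with its corrected counterpart where the call differs.

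**Figure D4:**
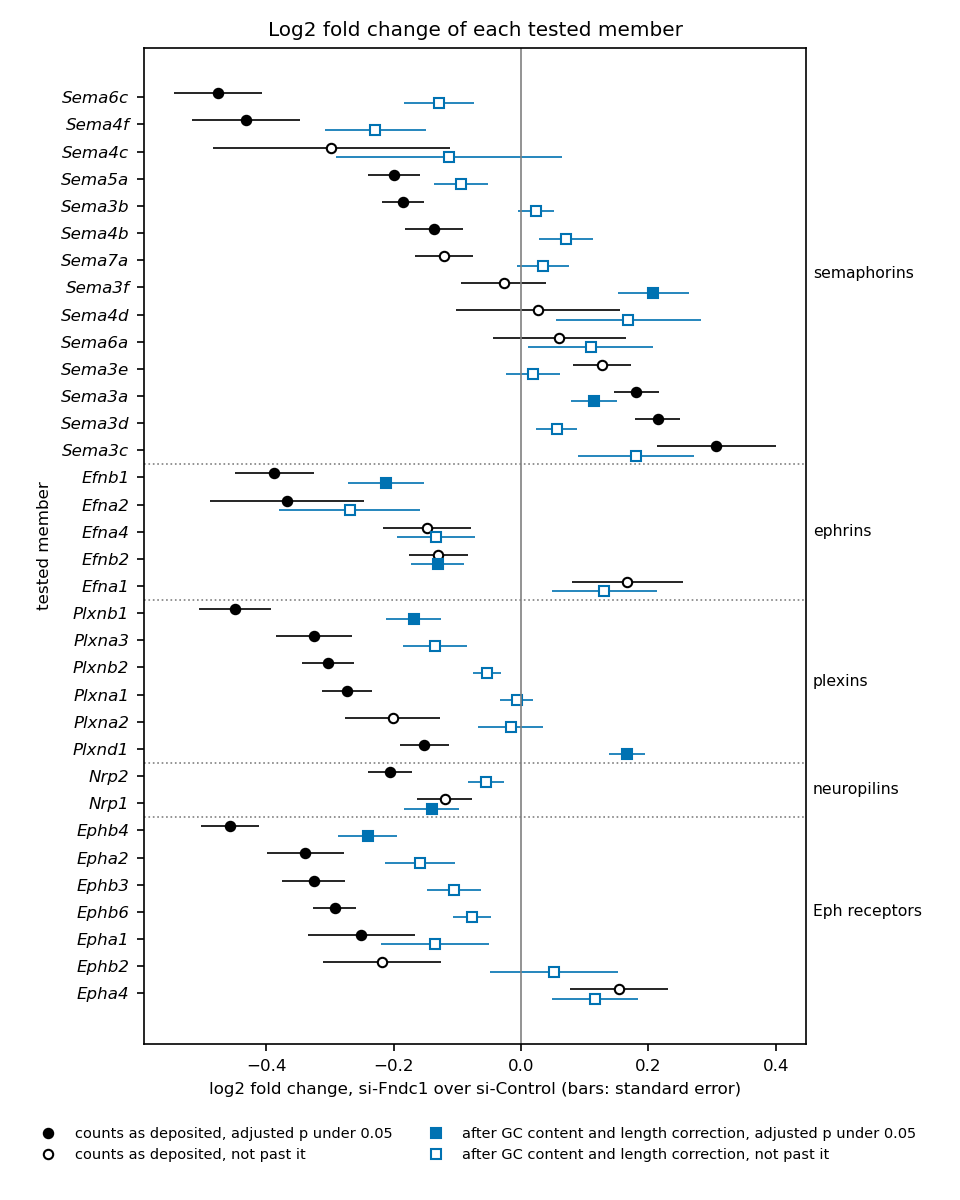
Log2 fold change of each tested member with its standard error, on the counts as deposited (circles) and after the GC content and length correction (squares), filled where the adjusted p was under 0.05. Most squares lie nearer to 0 than their circles; *Ephb4*, *Efnb1*, *Plxnb1* and *Sema3a* are filled in both, and *Plxnd1* changes sides from -0.15 to 0.17.

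Promoters are shown for 2 members that rose and the 2 that fell with the smallest p, so that their composition can be seen beside that of the transcripts. Of the 53 members 47 matched a promoter in RefSeq (GRCm38.p6, 250 bases before to 50 after the start), 30 of them tested. The RefSeq start of *Sema3a* lay 271 kb inside the gene as the deposited table lists it, measured against the 10 nearest genes, so its sequence is not shown. Of the 24 tested members whose starts could be compared in this way it was the only one off by more than 10 kb. The 16 promoters of members that fell held a median of 23 CG dinucleotides (7 to 37) and a median GC content of 66.8%, and the 11 of members that did not pass the test a median of 19 (3 to 35) and 64.0%. Of the other members that rose *Sema3d* held 8, and *Sema3c* held 42, more than any member that fell. All 32851 promoters of the same length had a median of 7, and 94.6% held at least 1. These were not limited to expressed genes, so the sets are unlike. No test was made of these counts. CG dinucleotides, which read the same on both strands, are in capitals; all 4 genes lie on the plus strand, so that the sequences read 5′ to 3′ along it. *Sema3d* lies at chr5:12382916-12383215, *Sema3c* at chr5:17574566-17574865, *Ephb4* (14 CG dinucleotides) at chr5:137349859-137350158 and *Ephb6* (34) at chr6:41605261-41605560:
Sema3d: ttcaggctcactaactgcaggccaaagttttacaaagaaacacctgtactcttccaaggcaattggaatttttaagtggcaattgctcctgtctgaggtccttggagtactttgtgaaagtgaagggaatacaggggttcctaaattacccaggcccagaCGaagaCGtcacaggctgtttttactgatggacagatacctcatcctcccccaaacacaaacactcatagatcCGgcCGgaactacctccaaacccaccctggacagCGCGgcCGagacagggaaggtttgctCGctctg
Sema3c: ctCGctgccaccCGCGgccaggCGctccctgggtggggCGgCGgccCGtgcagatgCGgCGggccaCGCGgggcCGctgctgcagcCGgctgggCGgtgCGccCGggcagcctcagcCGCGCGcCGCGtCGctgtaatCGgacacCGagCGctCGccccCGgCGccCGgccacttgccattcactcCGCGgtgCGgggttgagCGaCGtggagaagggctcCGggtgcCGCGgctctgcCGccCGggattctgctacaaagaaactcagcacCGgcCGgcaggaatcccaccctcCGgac
Ephb4: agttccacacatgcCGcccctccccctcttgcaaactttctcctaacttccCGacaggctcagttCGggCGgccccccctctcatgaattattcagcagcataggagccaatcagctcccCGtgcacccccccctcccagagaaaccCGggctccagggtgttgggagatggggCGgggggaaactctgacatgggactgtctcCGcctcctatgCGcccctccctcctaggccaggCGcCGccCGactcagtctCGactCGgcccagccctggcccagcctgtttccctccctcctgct
Ephb6: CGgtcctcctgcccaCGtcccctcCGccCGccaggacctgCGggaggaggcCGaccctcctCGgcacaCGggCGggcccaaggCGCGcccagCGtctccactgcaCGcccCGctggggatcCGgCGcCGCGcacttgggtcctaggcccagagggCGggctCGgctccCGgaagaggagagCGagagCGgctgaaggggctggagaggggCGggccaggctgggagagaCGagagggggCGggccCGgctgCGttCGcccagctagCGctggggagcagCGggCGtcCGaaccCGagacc
The E-box CAGCTG, the letters preferred by myogenic bHLH factors, is identical on both strands. It was found in the promoters of *Sema7a* and *Ephb3*, 2 of the 30 tested members (6.67%). Among members under the expression limit it was found in those of *Sema3g*, *Sema4g*, *Plxnb3*, *Epha6* and *Epha10*. Of all promoters 16.3% held it, but these were not limited to expressed genes, so the shares are of unlike sets. No test was made of this motif.

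*Ephb4* and *Ephb6* had the lowest adjusted p-values of the 34 tested members. Of 7 Eph receptors tested, 5 fell, 0 rose and 2 did not pass the test. This was 71.4% lower, beside 17.2% of all tested genes, and after the correction 1 was called lower and 0 higher. *Ephb4* (ENSMUSG00000029710), the receptor of ephrin-B2 known from the arteriovenous boundary, lies on the plus strand of chromosome 5, at 137348371 to 137376931. Gene coordinates are given as the deposited table lists them, and the processing notes name the build GRCm39. *Ephb4* was at 11.5, 11.5, 11.9, 11.8 and 11.7 FPKM in si-Control libraries 1 to 5 and at 7.74, 8.95, 8.07, 8.53 and 9.01 FPKM in the si-*Fndc1* libraries. All 5 knockdown libraries lay below all controls, and the spread between controls was narrow. The level fell by 27.5% (log2 fold change -0.46, SE 0.05, adjusted p = 5.17e-05, edgeR with Benjamini-Hochberg adjustment; exact permutation test of FPKM, two-sided, p = 0.00794, the smallest that 5 against 5 allow). After the GC content and length correction the log2 fold change was -0.24 (adjusted p = 0.00432), and the call stood.

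*Ephb6* (ENSMUSG00000029869) was at 46.8, 51.2, 52.0, 48.9 and 49.5 FPKM in si-Control and at 39.3, 40.6, 41.2, 40.3 and 40.3 FPKM in si-*Fndc1*, a difference of -18.8% with no overlap (log2 fold change -0.29, SE 0.03, edgeR adjusted p = 0.000108). After correction its log2 fold change was -0.08 (adjusted p = 0.0845). *Epha2*, the receptor of ephrin-A1 on many epithelial and tumour cells, was at 11.6, 11.2, 11.8, 12.2 and 13.3 FPKM in si-Control and at 8.92, 10.3, 8.97, 10.1 and 8.98 FPKM in si-*Fndc1*. The groups were apart and *Epha2* fell by 21.4% (log2 fold change -0.34, SE 0.06, edgeR adjusted p = 0.00159), with a corrected value of -0.16 (adjusted p = 0.0602). *Ephb3*, a receptor of B-type ephrins, was at 6.50, 6.70, 7.07, 6.91 and 6.47 FPKM in si-Control and at 5.63, 5.71, 4.86, 5.33 and 5.19 FPKM in si-*Fndc1*. It too had no overlap and fell by 20.6% (log2 fold change -0.33, SE 0.05, edgeR adjusted p = 0.000608), with a corrected value of -0.10 (adjusted p = 0.102).

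*Epha1*, a receptor of A-type ephrins, was the weakest of the called Eph receptors, at 2.33 to 2.93 FPKM in si-Control and 2.04 to 2.45 FPKM in si-*Fndc1* (log2 fold change -0.25, SE 0.08, edgeR adjusted p = 0.0392), and its corrected value was -0.13 (adjusted p = 0.290). Its ranges overlapped, and its adjusted p rose to as much as 0.0891 when single libraries were left out, with the call lost without si-Control 1, 2, 3 or 4 or si-*Fndc1* 1, 2 or 4. The gene also overlaps *Zyx* on the opposite strand, which had a mean count of 30216 against 766.5 for *Epha1*, and whether strand was used in counting is not given in the sources used here, so reads of the pair cannot be told apart. Of the other tested members none overlapped a gene with more than 7.94% of its own count, the value for a lncRNA at *Efna4*. *Ephb2* (1.56 to 1.98 FPKM in si-Control, 1.27 to 1.73 FPKM in si-*Fndc1*) had a log2 fold change of -0.22 (adjusted p = 0.0946) and *Epha4*, which binds ephrins of both types, one of 0.15 (adjusted p = 0.148). *Epha4* was the only tested receptor with a positive log2 fold change on the uncorrected counts.

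Before correction 5 of 6 tested plexins were called lower and 0 higher. This was 83.3% lower, beside 17.2% of all tested genes and 40.9% of those with at least 55% GC. After the correction 1 was called lower and 1 higher, with a median log2 fold change of -0.03. *Plxnb1* (ENSMUSG00000053646), the receptor of Sema4d, lies on the plus strand of chromosome 9, at 108924457 to 108948985. It was at 3.68, 3.38, 3.89, 3.58 and 3.96 FPKM in si-Control and at 2.82, 2.75, 2.70, 2.71 and 2.50 FPKM in si-*Fndc1*. The ranges were well apart and the level fell by 27.2% (log2 fold change -0.45, SE 0.06, edgeR adjusted p = 0.000178). It was the largest change of a tested plexin, and the call held after correction (log2 fold change -0.17, adjusted p = 0.0179). With the correction and the replicate number as a block it did not pass (edgeR adjusted p = 0.0699).

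*Plxnb2* was at 53.5, 49.9, 54.3, 55.4 and 54.1 FPKM in si-Control and at 44.3, 46.2, 42.1, 42.1 and 40.9 FPKM in si-*Fndc1*. In FPKM this was the largest difference of any member, from a mean of 53.4 to one of 43.1 with no overlap (-19.4%, log2 fold change -0.30, SE 0.04, edgeR adjusted p = 0.000315), and the corrected log2 fold change was -0.05 (adjusted p = 0.112). *Plxna1*, which pairs with neuropilins to receive class 3 semaphorins, was at 21.6, 20.8, 22.3, 21.6 and 22.3 FPKM in si-Control and at 18.4, 19.1, 17.8, 16.8 and 17.3 FPKM in si-*Fndc1*. It fell by 17.7% without overlap (log2 fold change -0.27, SE 0.04, edgeR adjusted p = 0.000400), and the corrected value was -0.01 (adjusted p = 0.886). *Plxna3*, a partner of *Nrp2* in the response to Sema3f, was at 4.27, 3.91, 4.00, 3.95 and 4.15 FPKM in si-Control and at 3.01, 3.66, 3.17, 3.10 and 3.15 FPKM in si-*Fndc1*. Library si-*Fndc1* 2 was the highest of its group but still under every control (log2 fold change -0.32, SE 0.06, edgeR adjusted p = 0.00182), and the corrected value was -0.13 (adjusted p = 0.0778).

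*Plxnd1*, the plexin that binds Sema3e without a neuropilin, was the only receptor called in opposite directions with and without the correction. Its level was 8.89 to 9.75 FPKM in si-Control and 8.18 to 9.05 FPKM in si-*Fndc1*, with 1 knockdown library inside the control range. On the uncorrected counts it was called lower (log2 fold change -0.15, SE 0.04, edgeR adjusted p = 0.0117), and after the correction it was called higher (0.17, SE 0.03, adjusted p = 0.00198). Its GC content of 60.8% was the highest of the tested receptors. Other receptors also shifted upward with the correction, such as *Ephb2* from -0.22 to 0.05 and *Plxna1* from -0.27 to -0.01, while *Nrp1* and *Epha4* shifted slightly downward. *Plxna2* was at 3.48 to 4.29 FPKM in si-Control and 3.10 to 3.90 FPKM in si-*Fndc1* and did not pass the test (log2 fold change -0.20, adjusted p = 0.0580).

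The neuropilins, coreceptors of class 3 semaphorins and of VEGF, were both lower in the mean. *Nrp2* was at 21.1, 20.1, 21.5, 21.2 and 22.5 FPKM in si-Control and at 18.3, 19.2, 18.3, 17.7 and 18.3 FPKM in si-*Fndc1*. It fell by 13.7% with no overlap (log2 fold change -0.21, SE 0.03, edgeR adjusted p = 0.00110), and its corrected value was -0.05 (adjusted p = 0.194). *Nrp1*, the coreceptor for Sema3a, was at 4.01 to 4.39 FPKM and at 3.72 to 4.24 FPKM. Its log2 fold change was similar with and without the correction, with adjusted p-values on either side of the threshold. It did not pass the test on the uncorrected counts (log2 fold change -0.12, SE 0.04, adjusted p = 0.0543) and did after the correction (-0.14, adjusted p = 0.0378). With the correction and the replicate number as a block it did not pass (edgeR adjusted p = 0.0573). Whether the 2 neuropilins differed from each other in their response was not tested.

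The ligands were less uniform, and the 3 members that rose were all class 3 semaphorins. Of the 6 tested class 3 members 3 rose, 1 fell and 2 did not pass the test. This was 66.7% called, beside 34.4% of all tested genes, and after the correction 2 were called higher and 0 lower. *Sema3a* (ENSMUSG00000028883), the founding collapsin of axon guidance, lies on the plus strand of chromosome 5, at 13175381 to 13652533. It was at 3.80, 3.79, 3.73, 4.08 and 3.75 FPKM in si-Control and at 4.47, 4.15, 4.38, 4.23 and 4.36 FPKM in si-*Fndc1*. Each knockdown library lay above each control, si-Control 4 being the nearest, and the level was 12.8% higher (log2 fold change 0.18, SE 0.04, adjusted p = 0.00254, edgeR with Benjamini-Hochberg adjustment). The corrected value was 0.12 (adjusted p = 0.0409), and with the replicate number as a block as well it did not pass (edgeR adjusted p = 0.123).

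*Sema3d*, a secreted semaphorin known from heart and vessel development, was at 11.5, 10.5, 10.7, 11.1 and 10.4 FPKM in si-Control and at 12.5, 13.0, 12.6, 12.3 and 12.3 FPKM in si-*Fndc1*. The ranges did not overlap and the level was 15.4% higher (log2 fold change 0.21, SE 0.03, edgeR adjusted p = 0.000869), with a corrected value of 0.06 (adjusted p = 0.254). *Sema3c* had the largest rise of any tested member, 23.1%, but on controls that varied. It was at 3.49 to 4.79 FPKM in si-Control against 4.75 to 5.54 FPKM in si-*Fndc1* (log2 fold change 0.31, SE 0.09, edgeR adjusted p = 0.0269, corrected 0.18 with an adjusted p of 0.185). Its call was lost without si-Control 3, 4 or 5 or si-*Fndc1* 3 or 5, with an adjusted p of up to 0.0644. *Sema3e*, the ligand of plexin D1, was at 8.83 to 10.4 FPKM and at 10.0 to 10.9 FPKM (log2 fold change 0.13, adjusted p = 0.0531).

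These 4 genes are neighbours. They lie on chromosome 5 between 12433352 and 17935266, a span of 5.50 Mb with 21 protein-coding genes. Besides the 4 semaphorins, 3 of these were tested: *Pclo* fell, and *Hgf* and *Cacna2d1* did not pass the test. Their summed level was 26.5 to 30.5 FPKM in si-Control and 32.2 to 32.5 FPKM in si-*Fndc1*, a difference of 13.9%. In this sum the knockdown libraries were much closer to each other than the controls (SD 0.131 against 1.56 FPKM). For the single genes the SDs differed less: 0.129 against 0.143 FPKM for *Sema3a*, 0.317 against 0.609 for *Sema3c*, 0.283 against 0.448 for *Sema3d* and 0.337 against 0.620 for *Sema3e*. Whether the spreads differed was not tested.

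The other tested class 3 members, *Sema3b* and *Sema3f*, lie close to each other on chromosome 9, and both had negative log2 fold changes before correction. Whether they differed from each other was not tested. *Sema3b* was at 19.1, 18.2, 19.2, 18.8 and 19.1 FPKM in si-Control and at 17.1, 16.4, 17.1, 16.3 and 15.8 FPKM in si-*Fndc1*. It fell by 12.5% with the groups apart (log2 fold change -0.19, SE 0.03, edgeR adjusted p = 0.00165), and its corrected value was 0.02 (adjusted p = 0.611). *Sema3f*, the repellent read by *Nrp2*, was at 4.59 to 4.83 FPKM in si-Control and 3.83 to 4.81 FPKM in si-*Fndc1* (log2 fold change -0.03, adjusted p = 0.788). After the correction it was called higher (0.21, adjusted p = 0.0225), a call that the uncorrected levels do not show.

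Of the 8 tested membrane-bound semaphorins of classes 4 to 7, 4 fell and 0 rose, beside 17.2% called lower over all tested genes. None of them was called after the correction. *Sema6c*, a transmembrane semaphorin, had the largest fall of any tested ligand. It was at 3.49, 3.49, 3.61, 3.66 and 3.66 FPKM in si-Control and at 2.75, 2.94, 2.36, 2.41 and 2.34 FPKM in si-*Fndc1*, a difference of -28.5% without overlap (log2 fold change -0.48, SE 0.07, edgeR adjusted p = 0.000464). Its transcript had the highest GC content of the tested members, 63.5%, and the corrected value was -0.13 (adjusted p = 0.119). *Sema4f*, another transmembrane member, was at 1.38, 1.46, 1.71, 1.61 and 1.80 FPKM in si-Control and at 1.20, 1.23, 1.12, 1.09 and 1.22 FPKM in si-*Fndc1*. The groups were apart (log2 fold change -0.43, SE 0.09, edgeR adjusted p = 0.00275), and the corrected value was -0.23 (adjusted p = 0.0605).

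*Sema5a*, which carries thrombospondin repeats beside its semaphorin domain, was at 5.47, 5.05, 5.40, 5.16 and 5.13 FPKM in si-Control and at 4.31, 4.85, 4.30, 4.64 and 4.62 FPKM in si-*Fndc1*. It fell by 13.3% without overlap (log2 fold change -0.20, SE 0.04, edgeR adjusted p = 0.00360). Its GC content, 45.9%, lay in a range where the median of all genes was 0.04. Its implied length, 20786 bases, was the longest of the tested members, and the correction covers GC content and length together. The corrected value was -0.09 (adjusted p = 0.142). *Sema4b* was called lower by a small margin (5.21 to 5.69 FPKM against 4.80 to 5.26 FPKM, log2 fold change -0.14, SE 0.05, edgeR adjusted p = 0.0388). Its call was lost without si-Control 1, 3, 4 or 5 or si-*Fndc1* 1, 3 or 4 (adjusted p of up to 0.0852), and its corrected value was 0.07 (adjusted p = 0.265).

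*Sema4c* varied too much within groups for a call. It was at 11.5, 10.8, 18.2, 11.0 and 16.9 FPKM in si-Control and at 9.54, 15.4, 9.76, 10.1 and 10.4 FPKM in si-*Fndc1* (log2 fold change -0.30, SE 0.19, adjusted p = 0.243). Libraries si-Control 3 and 5 and si-*Fndc1* 2 were high, and the others of both groups lay between 9.54 and 11.5 FPKM. *Sema7a* (16.6 to 18.0 FPKM in si-Control, 15.1 to 17.5 FPKM in si-*Fndc1*) had a log2 fold change of -0.12 (adjusted p = 0.0606). *Sema4d* and *Sema6a* had log2 fold changes of 0.03 and 0.06 (adjusted p = 0.892 and 0.698).

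Among the ephrins 2 of 5 tested members fell and 0 rose. This share of 40% was near the 34.4% of all tested genes, and after the correction 2 were called lower and 0 higher. *Efnb1* (ENSMUSG00000031217), the transmembrane ligand ephrin-B1, lies on the plus strand of chromosome X, at 98179736 to 98192597. It was at 6.90, 7.22, 7.53, 6.47 and 6.33 FPKM in si-Control and at 5.66, 5.29, 5.23, 4.87 and 5.17 FPKM in si-*Fndc1*. Every knockdown library was lower than every control, and the level fell by 23.9% (log2 fold change -0.39, SE 0.06, adjusted p = 0.000775, edgeR with Benjamini-Hochberg adjustment). The call held after the correction (-0.21, adjusted p = 0.0264), and by little with the replicate number as a block as well (edgeR adjusted p = 0.0492). *Efna2*, the gene of the lipid-anchored ephrin-A2, was at 3.10, 3.15, 3.70, 3.20 and 3.80 FPKM in si-Control and at 2.19, 2.14, 2.88, 3.03 and 2.84 FPKM in si-*Fndc1*. The groups were apart by little (log2 fold change -0.37, SE 0.12, edgeR adjusted p = 0.0357, corrected -0.27 with an adjusted p of 0.108). Its call was lost without si-Control 3 or 5 or si-*Fndc1* 1 or 2 (adjusted p of up to 0.0828).

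*Efnb2* was at 12.7 to 13.9 FPKM in si-Control and 10.9 to 12.9 FPKM in si-*Fndc1*, with a log2 fold change of -0.13 in both fits. That value missed the threshold on the uncorrected counts (adjusted p = 0.0521) and passed it after the correction (adjusted p = 0.0436). With the correction and the replicate number as a block it did not pass (edgeR adjusted p = 0.103). *Efna1*, the ligand of *Epha2*, had a log2 fold change of 0.17 (adjusted p = 0.164), and *Efna4* one of -0.15 (adjusted p = 0.127).

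Set pair by pair on the uncorrected counts, several known receptors were lower where their ligands were not called (the pairs were chosen after their values were seen). Other pairings were left out, so these pairs do not show how receptors and ligands went in general. *Ephb4* fell by 27.5%, and its ligand gene *Efnb2* differed by -9.06% without passing the test. *Plxnb1* fell by 27.2%, while *Sema4d* differed by 1.31% (2.40 ± 0.321 FPKM in si-Control, 2.44 ± 0.429 FPKM in si-*Fndc1*). *Epha2* fell by 21.4%, and *Efna1* differed by 11.7% (5.90 ± 0.434 FPKM and 6.59 ± 0.757 FPKM). *Plxnb2* fell by 19.4%, and *Sema4c* differed by -19.1% with an SD of 3.59 FPKM among controls. *Nrp2* fell by 13.7%, and *Sema3f* differed by -2.41%. *Sema3b*, also a class 3 semaphorin, differed by -12.5% and was called lower. *Efnb1* and *Ephb3*, a receptor of B-type ephrins, both fell. For *Nrp1* and its ligand *Sema3a* the order was the reverse, since *Sema3a* rose and *Nrp1* did not pass the test.

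After the GC content and length correction 1 of these pairs kept a called receptor beside an uncalled ligand, *Plxnb1* (-0.17, adjusted p = 0.0179) and *Sema4d* (0.17, adjusted p = 0.326). *Ephb4* and *Efnb2* were then both called lower, and *Epha2*, *Plxnb2* and *Nrp2* were not called. *Sema3f* was called higher, and *Plxnd1*, the receptor of *Sema3e*, was called higher with *Sema3e* at 0.02 (adjusted p = 0.793). *Nrp1* was called lower (-0.14, adjusted p = 0.0378) and *Sema3a* higher (0.12, adjusted p = 0.0409). With the replicate number as a block beside the correction, *Plxnb1*, *Efnb2*, *Sema3f*, *Nrp1* and *Sema3a* did not pass. Whether a receptor and its ligand differed in their response was not tested for any pair, and all values come from the same 10 libraries.

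Genes downstream of these receptors were followed in lists made from general knowledge of the pathways. The lists were chosen with earlier results of these data known, so their shares of called genes are descriptive and were not tested. Of 33 tested coreceptors and effectors of semaphorin and plexin signalling 16 fell and 5 rose, with a median log2 fold change of -0.17. This was 63.6% called, beside 34.4% of all tested genes, and after the correction 11 were called lower and 2 higher, 39.4% beside 22.8%. The smallest p-values were those of *Cfl2*, the muscle cofilin that severs actin filaments, which was at 34.5 ± 1.13 FPKM in si-Control and 49.6 ± 1.65 FPKM in si-*Fndc1* (log2 fold change 0.53, edgeR adjusted p = 7.81e-06, corrected 0.21 with an adjusted p of 0.00242), of *Rap1b*, a GTPase that plexins switch off, and of *Erbb2*, a receptor tyrosine kinase that associates with plexin B. *Rap1b* was at 51.1 ± 1.16 and 64.4 ± 2.28 FPKM (log2 fold change 0.34, edgeR adjusted p = 2.92e-05), and the corrected value was 0.05 (adjusted p = 0.254). *Erbb2* was at 12.3 ± 0.678 and 8.64 ± 0.698 FPKM (log2 fold change -0.50, edgeR adjusted p = 0.000158), and it was also called after the correction (-0.30, adjusted p = 0.00220).

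Of 28 tested adaptors, exchange factors and proteases of Eph and ephrin signalling 7 fell and 3 rose (median log2 fold change -0.0085), and after the correction 3 were called lower and 4 higher. Both shares, 35.7% and 25%, were near those of all genes, 34.4% and 22.8%. *Mmp14*, a membrane metalloprotease that can cut Eph receptors, fell from 158 ± 5.63 to 120 ± 3.32 FPKM (log2 fold change -0.39, edgeR adjusted p = 2.40e-05, corrected -0.22 with an adjusted p of 0.000716). *Dvl2*, a Dishevelled adaptor also known from Wnt signalling, fell from 7.06 ± 0.394 to 5.04 ± 0.453 FPKM (log2 fold change -0.48, edgeR adjusted p = 0.000315, corrected -0.26 with an adjusted p of 0.0279). *Itsn1*, an exchange factor for Cdc42, fell from 3.44 ± 0.239 to 2.73 ± 0.179 FPKM (log2 fold change -0.33, edgeR adjusted p = 0.00123), and the corrected value was -0.06 (adjusted p = 0.634).

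Further lists held other ligands of neuropilins and other guidance systems. Of 5 tested genes among the VEGF-type ligands of neuropilins and their receptors 1 fell, *Vegfb* (log2 fold change -0.17, edgeR adjusted p = 0.0308, corrected -0.02 with an adjusted p of 0.771), and the median was 0.01. This was 20% called, beside 34.4% of all tested genes, and after the correction 0 were called. The call of *Vegfb* was lost without si-Control 2, 3 or 5 or si-*Fndc1* 3, 4 or 5. *Vegfa* had a log2 fold change of -0.01 (adjusted p = 0.886). Among netrins, Slits, RGMs and their receptors 4 of 11 tested genes fell and 0 rose, with a median of -0.18. This share of 36.4% was near the 34.4% of all genes, and after the correction 2 were called lower and 1 higher. *Rgma*, a repulsive ligand of neogenin, fell from 14.1 ± 0.685 to 9.89 ± 0.349 FPKM (log2 fold change -0.50, edgeR adjusted p = 2.03e-05, corrected -0.21 with an adjusted p of 0.00152). *Ntn4*, a netrin, kept its call after the correction (-0.15, edgeR adjusted p = 0.00960, corrected -0.14 with an adjusted p of 0.0154). *Unc5b*, a netrin receptor, was called lower on the uncorrected counts (-0.18, edgeR adjusted p = 0.00228) and higher after the correction (0.08, adjusted p = 0.0418).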

How the data were processed

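Poly(A) RNA of C2C12 cells was sequenced in 5 si-Control and 5 si-*Fndc1* libraries, and groups and replicate numbers were taken from the labels. The authors deposited raw read counts per gene, with no normalization, and FPKM values (fragments scaled to transcript length and library size), listed as a small constant where the count was 0. How FPKM was computed and whether strand was used in counting is not given in the sources used here. The sources disagree on the alignment: the methods name TopHat, mm10 and htseq-count, the design text STAR and mm9, and the submitters' processing notes cutadapt 1.9, FastQC and GRCm39. The methods mention fewer libraries than the 10 in the table, and all 10 were used.

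Genes whose FPKM averaged 0.5 or more across the 10 libraries were tested on the deposited counts with edgeR 4.0.16 (quasi-likelihood test, TMM, group only) in R 4.3.3, with Benjamini-Hochberg adjustment over all 13548 tested genes. The methods name DESeq2, which was run as an alternative (1.42.0), as was limma 3.58.1 on log2(FPKM + 1). FPKM levels of single genes were compared with two-sided exact permutation tests. For the correction, the trend of log counts (0.5 added) with GC content (transcripts of NCBIM37) and the length implied by count and FPKM was fitted in each library by robust regression with splines of 5 degrees of freedom and used as an offset, for 11185 genes (82.6% of those tested, all 34 tested members among them). Lowest counts were multiples of 4 more often than higher ones (34.0% to 36.0% of counts from 1 to 29, 23.7% to 25.7% from 1000 up).

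Members named in the text are every called member, the highest and the most changed member of each family, those under the filter, and up to 3 called genes with the smallest p of each related list. The members and lists were chosen with earlier results of these data known. Depth was 56332844 to 75995168 counts per library. Alternatives were other normalizations, tools and filters, leaving out each library, the replicate number as a block, and the correction with and without the block. Promoter sequences came from RefSeq (GRCm38.p6), and those of mouse chromosome 18 were not used.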

Additional observations from a re-analysis of the deposited data

Results flagged for a closer look

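Among 68 groups of 5 libraries (34 tested members in 2 groups), 5 held a library set apart from the other 4 by Dixon's criterion, and chance alone gives such a flag in about 1 of 20 groups, or 3.4 here. *Sema3a* in si-Control had its highest value, 4.08 FPKM, in library 4, with the next at 3.80 FPKM. *Sema3f* in si-*Fndc1* had its lowest value, 3.83 FPKM, in library 5, with the next at 4.63 FPKM. *Sema4c* in si-*Fndc1* was at 15.4 FPKM in library 2, with the next at 10.4 FPKM. *Plxna3* was at 3.66 FPKM in si-*Fndc1* library 2, with the next at 3.17 FPKM. *Nrp1* was at 4.24 FPKM in si-*Fndc1* library 5, with the next at 3.80 FPKM.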

How the results depend on the processing

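Without the GC content and length correction the counts were stable. Leaving out single libraries gave 17 to 22 members called (7 to 10 ligands, 10 to 12 receptors), with medians from -0.14 to -0.10 for ligands and from -0.30 to -0.27 for receptors. Of the 21 called members 17 were called in all 10 of these fits and 16 in every alternative without the correction; *Sema3c*, *Sema4b*, *Efna2*, *Epha1* and *Plxnd1* were not. With no filter the median of receptors was -0.22. The replicate numbers did not pair the libraries: deviations of same-numbered libraries correlated at -0.0553 to 0.0643, and 2 of 10 libraries correlated best with their own number. With the replicate block 17 members were called (8 ligands, 9 receptors), with medians of -0.13 and -0.27.

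The correction changed the counts most. With it 8 members were called (4 ligands, 4 receptors) and the medians were 0.023 and -0.077. With the correction and the replicate block together 3 were called, with medians of 0.023 and -0.076. They were 1 ligand, *Efnb1* (lower), and 2 receptors, *Ephb4* (lower) and *Plxnd1* (higher). The cause was not tested. Among members, and *Unc5b* of the related lists, log2 fold changes that changed sign were, with the correction and then with the correction and the block, 0.023 and 0.023 for *Sema3b*, 0.21 and 0.20 for *Sema3f*, 0.071 and 0.070 for *Sema4b*, 0.034 and 0.033 for *Sema7a*, 0.17 and 0.17 for *Plxnd1*, 0.052 and 0.049 for *Ephb2*, and 0.075 and 0.076 for *Unc5b*. Of the 77 tested genes of the related lists 22 changed sign with the correction, and *Cdc42* and *Unc5b* were called in opposite directions. Leaving out single libraries turned the sign of 3 members near 0, with ranges of -0.044 to 0.097 for *Sema4d* (negative without si-Control 2 or 3 or si-*Fndc1* 1 or 2), -0.028 to 0.12 for *Sema6a* (negative without si-*Fndc1* 1) and -0.049 to 0.031 for *Sema3f* (positive without si-*Fndc1* 5). Dividing the counts by 4, and testing the genes of the correction uncorrected (21 and 22 called), were alternatives chosen after seeing the data. With no filter 15 of the 19 members under the expression minimum could be fitted, and edgeR called 0 of them (smallest adjusted p 0.128; 1 at an unadjusted p under 0.05).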
